A study of Homo sapiens with 28 samples.

Results

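H3K27ac, acetylation of lysine 27 of histone H3, was compared between senescent (Sen) and proliferating (Pro) IMR-90 ER:Ras cells in 4 CUT&RUN libraries, 2 of each state, out of 28 libraries in the series. IMR-90 is an established line of human fetal lung fibroblasts, and ER:Ras is an oncogenic Ras fused to an estrogen receptor domain, which 4-hydroxytamoxifen (4-OHT) switches on. The 2 Sen libraries are those deposited first with H3K27ac, titled Sen replicates 1 and 2, and the 2 Pro libraries are titled Pro replicates 1 and 2. The Sen cells carried a control siRNA (siCtrl) and had received 100 nM 4-OHT for 6 days. The treatment and cell type labels of the Pro libraries are the same as those of the Sen libraries, so the state of the Pro cells rests on their titles. The labels do not say whether replicates were separate cultures, so the spread between them may be technical, and all libraries come from 1 cell line that reaches senescence through an introduced oncogene.

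H3K27ac is laid down by the acetyltransferases p300 and CBP and marks active promoters and enhancers. In CUT&RUN an antibody tethers a nuclease to the mark, which releases the DNA beneath it for sequencing. Senescence is a lasting arrest of the cell cycle, and Ras-induced senescence is known for a rebuilt enhancer landscape in which the AP-1 factors, including c-JUN, take part. FOXF1, a forkhead factor of the lung mesenchyme, and c-JUN carrying its activating phosphorylation (p-c-JUN) were profiled in the same series.

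The members described here are stretches of the genome. Peaks of the 4 libraries on chromosomes 1 to 22 and X were joined wherever they overlapped by 1 bp, which gave 132822 regions. A region was called gained when both Sen libraries and neither Pro library had a peak in it, and lost when the reverse held. There were 5988 gained regions, 4.51% of all joined regions, and 12698 lost regions, 9.56%. Because gain and loss are defined by the H3K27ac peaks of these 4 libraries, their H3K27ac values below are descriptions with no test. No annotation of the files' genome build (hg19) was used, so regions are named by position. Their nearest genes and the fibroblast markers of the cells were not analysed here.

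The 4 libraries were of unequal strength. Pro replicate 1 had 84304 peaks, Pro replicate 2 had 89329, Sen replicate 1 had 84864 and Sen replicate 2 had 60862. The first 3 covered 55.8 to 58.0 Mb of the genome and Sen replicate 2 covered 32.3 Mb. Median peak width was 553 bp and 539 bp in Pro, and 527 bp and 432 bp in Sen. The depth was read from the peak values themselves: solving each peak's fold enrichment and p-value for its number of overlapping fragments gave whole numbers in 100% of the peaks with a -log10 p below 60. The median peak summit lay under 20 fragments in the first 3 libraries and under 16 in Sen replicate 2. A low background was taken as the 0.1% quantile of the solved summit backgrounds, divided by the width of the library's narrowest peak. It was 6.59 fragments per kb in Sen replicate 2 against 7.96, 8.28 and 8.10 in the first 3. Sen replicate 1 thus lay beside the Pro libraries in peak number and in depth, and Sen replicate 2 lay below them.

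Peak number overlapped between the states. Covered length and median width did not, but Sen replicate 1 lay close to Pro, at 55.78 Mb against 55.83 and 58.02 Mb. Its median width was 527 bp against 553 and 539 bp. The spread between the Sen replicates was larger than these gaps. The peak number of Sen relative to Pro changed by -0.27 on the log2 scale (SE 0.24, n = 2 per state, exact two-sided permutation p = 0.667). Covered length changed by -0.42 on the log2 scale (SE 0.40, n = 2 per state, exact two-sided permutation p = 0.333), and median width by -66.5 bp (SE 48.0, n = 2 per state, exact two-sided permutation p = 0.333). The smallest p that 2 libraries against 2 allow is 0.333. Without Sen replicate 2 these differences were -0.03, -0.03 and -19.0 bp, and without Sen replicate 1 they were -0.51, -0.82 and -114.0 bp. With a -log10 q of 5 or more the differences in peak number and covered length were -0.63 and -0.72, and with all 4 Sen libraries of that label the difference in peak number was -0.77.

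Acetylated regions were lost more often than gained, but the size of that imbalance moved with the lists used. Its direction reversed without Sen replicate 2, where gain and loss rest on unequal rules. When each list was limited to its strongest 60862 peaks, 6808 regions were gained and 8779 were lost. With peaks limited to a -log10 q of 5 or more, 2236 were gained and 9015 were lost. A region missing from a list may hold acetylation below the threshold of the authors' peak calling, and the part of the lower depth of Sen replicate 2 in the losses was not tested beyond these counts. Each library left out loosens the definition of the class: without Sen replicate 1 there were 14803 gained and 27309 lost regions. Without Sen replicate 2 there were 22045 gained and 14552 lost, so gained regions were then the more numerous. With a Sen library left out, however, a gain needs a peak in a single library and a loss in both Pro libraries. The 15719 regions held by Sen replicate 1 alone then counted as gained. These counts thus cannot tell whether the excess of losses rests on Sen replicate 2. Without Pro replicate 1 there were 28821 lost regions and without Pro replicate 2 there were 26079.

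Most regions fell in neither class. All 4 libraries shared 34380 regions, 25.9% of the total, and a further 50718 regions, 38.2%, were held by a single library. The largest pattern among those of 3 libraries was a peak in both Pro libraries and in Sen replicate 1 but not in Sen replicate 2, with 14175 regions. The matching pattern with Sen replicate 2 in place of Sen replicate 1 had 1833 regions. Regions held by 1 library of each state numbered 2836 for Pro replicate 1 with Sen replicate 1, 3630 for Pro replicate 2 with Sen replicate 1, 697 for Pro replicate 1 with Sen replicate 2 and 959 for Pro replicate 2 with Sen replicate 2. The 5988 gained regions shared by the Sen pair thus outnumbered each of the 4 pairs across states, as did the 12698 shared by the Pro pair.

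**Figure D1:**
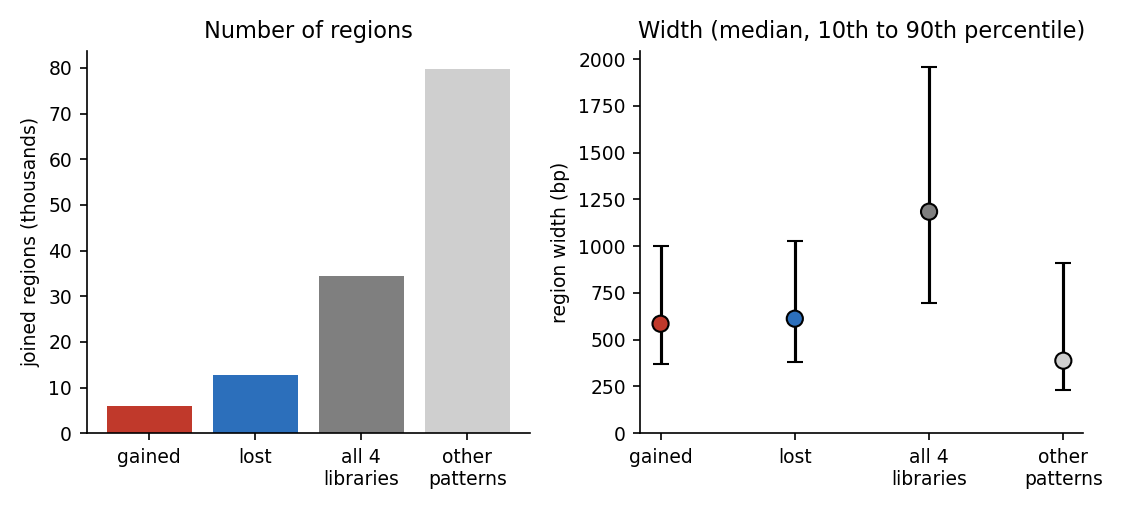
Left, number of joined H3K27ac regions that were gained, lost, held by all 4 libraries or held in another pattern. Right, their width in bp, with the point at the median and the bar from the 10th to the 90th percentile; the median is 585 bp for gained, 612 bp for lost and 1184 bp for regions of all 4 libraries.

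Gained and lost regions were narrower and weaker than the regions shared by all 4 libraries. The median width was 585 bp for gained regions, with 367.7 to 1001 bp between the 10th and 90th percentiles, and 612 bp for lost regions, with 379 to 1028 bp. Regions of all 4 libraries had a median of 1184 bp, so both classes were narrower than the shared regions. They were wider than regions of other patterns, with a median of 387.5 bp, and near the 571 bp of every joined region. Joining more lists widens a region, so the length within 1 library was compared as well. In Sen replicate 1 the median was 466.5 bp in gained and 905 bp in shared regions, and in Sen replicate 2 it was 388 and 604 bp. In Pro replicate 1 it was 463 bp in lost and 865 bp in shared regions, and in Pro replicate 2 it was 469 and 877 bp. The shared regions were the wider ones in each library.

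The authors' fold enrichment over background gave the same order, but it comes from the peak calls that define the classes. Regions called in all 4 libraries are expected to be stronger and wider than regions called in 2. Width, fold and rank thus describe the selection and are not separate support. The median fold of gained regions was 3.71 in Sen replicate 1 and 3.73 in Sen replicate 2, against 4.43 and 4.03 for shared regions in those libraries. Lost regions had a median fold of 3.73 in Pro replicate 1 and 3.67 in Pro replicate 2, against 4.47 and 4.36 for shared regions. By rank of -log10 q within a library, 2.24% of gained regions in Sen replicate 1 and 3.39% in Sen replicate 2 were among the top 10% of peaks. For lost regions the shares were 1.81% and 2.17% in the Pro libraries. The median rank of gained regions lay 58.2% and 57.3% down the 2 Sen lists. For lost regions it lay 60.5% and 58.4% down the Pro lists, so both classes sat below the middle. Of shared regions, 16.3% to 23.0% ranked in the top 10% of a library, so a shared region was more often among a library's strongest than a gained or lost one.

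In 97.8% of gained and 97.8% of lost regions each of the 2 libraries contributed exactly 1 peak. The summits of the 2 peaks lay a median of 128 bp apart in gained and 120 bp apart in lost regions, a distance close to the 152 and 134 bp in shared regions of the Sen and Pro libraries. Gained regions made up 5.69% of the covered length of Sen replicate 1 and 8.24% of that of Sen replicate 2. Lost regions made up 11.9% and 11.5% of the 2 Pro libraries, and shared regions between 56.2% and 73.4% of each library.

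Gained regions were spread over every chromosome examined. Their share of the joined regions ran from 2.96% on chromosome 19, with 73 of 2466 regions, to 5.39% on chromosome 13, with 228 of 4230. Next to chromosome 19 the lowest shares were 3.30% on chromosome 22, 3.74% on chromosome 17 and 3.79% on chromosome 1, and next to chromosome 13 the highest were 5.20% on chromosome 21 and 5.15% on chromosome 20. Lost regions ran from 8.27% on chromosome 19 to 11.6% on the X chromosome. Chromosome 19 thus held the lowest share of both classes, and the X chromosome had 112 gained against 340 lost regions. Lost regions outnumbered gained regions on all 23 chromosomes.

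**Figure D2:**
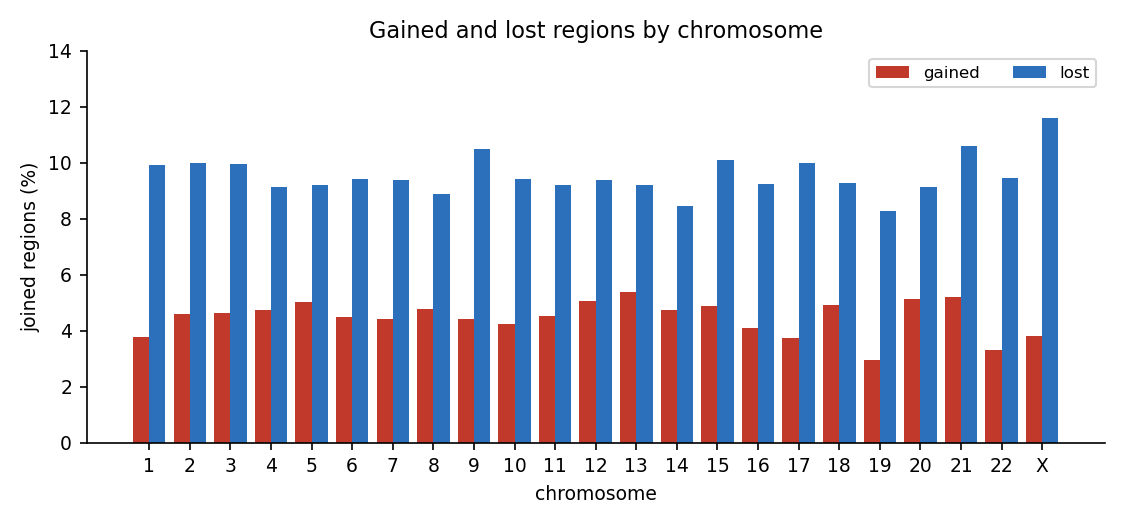
Share of joined H3K27ac regions (%) that were gained (red) or lost (blue) on each chromosome. Gained shares lie between 2.96% (chromosome 19) and 5.39% (chromosome 13), and lost shares between 8.27% (chromosome 19) and 11.6% (X).

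At a finer scale the 2 classes often fell in the same bins. Of 2629 bins of 1 Mb with a region, 1855 held at least 1 gained and at least 1 lost region, and 433, or 16.5%, held more gained than lost regions. The median bin had 2 gained and 4 lost regions, 662 bins held no gained region and 297 no lost region. Most bins thus held each class, and how often both would share a bin from these numbers alone was not computed. The bin scale was chosen after the data were seen. The bin with the most gained regions was 124 to 125 Mb on chromosome 5, with 15 gained and 5 lost among 101 regions. Bins at 43 to 44 Mb on chromosome 13, 141 to 142 Mb on chromosome 5 and 76 to 77 Mb on chromosome 12 held 14 gained regions each, beside 7, 6 and 11 lost. The bin at 127 to 128 Mb on chromosome 11 had 12 gained regions and 1 lost among its 41, the largest part of any of the 12 bins with the most gained regions. Loss was densest at 11 to 12 Mb on chromosome 16, where 22 regions were lost and 1 was gained among 106. Bins at 85 to 86 Mb and 238 to 239 Mb on chromosome 2 lost 20 regions each and gained 5 and 7. On chromosome 14 the bin from 100 to 101 Mb lost 18 of 90 regions and gained 0.

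Covered length in tiled bins of 100 kb gave a view that does not depend on how peaks were joined. Of 18496 bins with a peak, 9.01% had more covered bases in both Sen libraries than in either Pro library, and 40.0% had more in both Pro libraries. Expressed as a share of each library's total covered length, the figures were 25.9% and 29.5%. The excess of bins higher in Pro was smaller on that scale.

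Runs of neighbouring gained or lost regions were rare. With regions of 1 class chained across gaps of up to 10 kb, 88.3% of gained and 80.4% of lost regions stood alone. Chains of 3 or more held 87 gained regions, 1.45% (95% Wilson interval 1.18% to 1.79%, counting error only), and 461 lost regions, 3.63% (3.32% to 3.97%). Regions of all 4 libraries reached 15.9%. A class with more regions forms chains more easily, and the classes differ in number, so these shares describe each class and do not rank their clustering.

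The longest gained chains had 4 regions, and there were few of them. The chain with the largest summed width, chr20:7830274-7854554, spanned 24.3 kb, had 3637 bp of gained regions and held no region shared by all 4 libraries. Others lay at chr8:50766013-50783256, chr2:182802059-182824611, chr1:68795290-68812116 and chr20:6472723-6487986, the last on the same chromosome as the first. Of these 5 chains, the chromosome 2 chain alone enclosed a shared region. No lost region fell inside any of the 5.

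Lost chains were longer, with up to 5 regions. The chain at chr16:15951781-15980258 held 5 lost regions with a summed width of 3662 bp over 28.5 kb, and 1 shared region between them. The chain at chr5:53953623-53985484 held 5 over 31.9 kb with no shared region. Another at chr2:238773433-238805272 held 5 over 31.8 kb, within one of the bins with 20 losses. The chains at chr11:8777530-8795104 and chr4:8507895-8536363 had 4 lost regions each. None of these 5 stretches held a gained region.

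Gained and lost regions lay about as far from shared acetylation as regions of other patterns did. The median distance from a gained region to the nearest region of all 4 libraries was 13.4 kb, and 9.59% were within 1 kb. For lost regions the median was 15.7 kb and 5.71% were within 1 kb. For regions held in other patterns the median was 14.3 kb and 8.43% were within 1 kb. A minority of each class was remote from any shared region: 15.4% of gained and 17.6% of lost regions were more than 50 kb away. Gain and loss seldom adjoined, since 1.303% of gained regions had a lost region within 1 kb. Lost regions are fewer than shared ones, so this share cannot be ranked against those for shared regions.

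The strongest gained regions had between 23 and 55 fragments over their summits in the Sen libraries and no peak in either Pro library. They were taken by the worse of their 2 ranks in the Sen libraries. First was chr5:64227516-64228778, 1263 bp wide, with 48 fragments in Sen replicate 1 and 38 in Sen replicate 2, which were 5.32 and 5.26 times the background. It ranked 2387 and 612 in the 2 lists. The second, chr16:75539663-75540985, had 31 and 23 fragments over a lower background, at 7.74-fold and 6.72-fold. The third, chr3:167579665-167580627, had 33 and 27 fragments. Every one of the 10 had fewer fragments in Sen replicate 2, the shallower library.

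Further down, chr2:153097153-153098842 was the second widest of the 10, with 1690 bp and 35 and 26 fragments. The region chr2:188573217-188574943 was the widest of them at 1727 bp and had the most fragments, 55 and 40, at the lowest fold enrichments of the 10, 4.40 and 3.69. The region chr6:75430795-75431230 was the narrowest at 436 bp, with 28 and 25 fragments and a fold enrichment of 7.59 and 6.91. The other 4 were chr7:124282963-124283968, chr3:171628756-171629796, chr12:32027479-32028559 and chr3:115039797-115041152. They had 35 to 38 fragments in Sen replicate 1 and 24 to 33 in Sen replicate 2.

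The strongest lost regions were taken in the same way from the Pro libraries, out of a class with more regions. First was chr19:6076441-6077372, 932 bp wide, with 50 fragments in Pro replicate 1 and 43 in Pro replicate 2, at 8.88-fold and 7.68-fold, and ranks of 131 and 482. The second, chr5:10191824-10193280, had 48 and 44 fragments and ranked 467 and 589. The third, chr2:43876040-43877242, had 51 and 46 fragments and ranked 685 and 756. In all 3 the Pro libraries had over 40 fragments at the summit and neither Sen library had a peak.

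In Pro replicate 1 the highest fold enrichment among these lost regions was at chr2:129105571-129106505, with 11.8-fold in Pro replicate 1 and 7.57-fold in Pro replicate 2. It was followed by chr10:71528620-71529522 with 11.0-fold and 8.78-fold. Both varied between the replicates more than chr4:61484894-61486232 did, which had 51 and 49 fragments. The remaining 4, chr16:85088877-85090006, chr11:44863173-44864633, chr2:103129995-103131325 and chr14:31910720-31911579, had 32 to 41 fragments in Pro replicate 1 and 36 to 38 in Pro replicate 2.

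**Figure D3:**
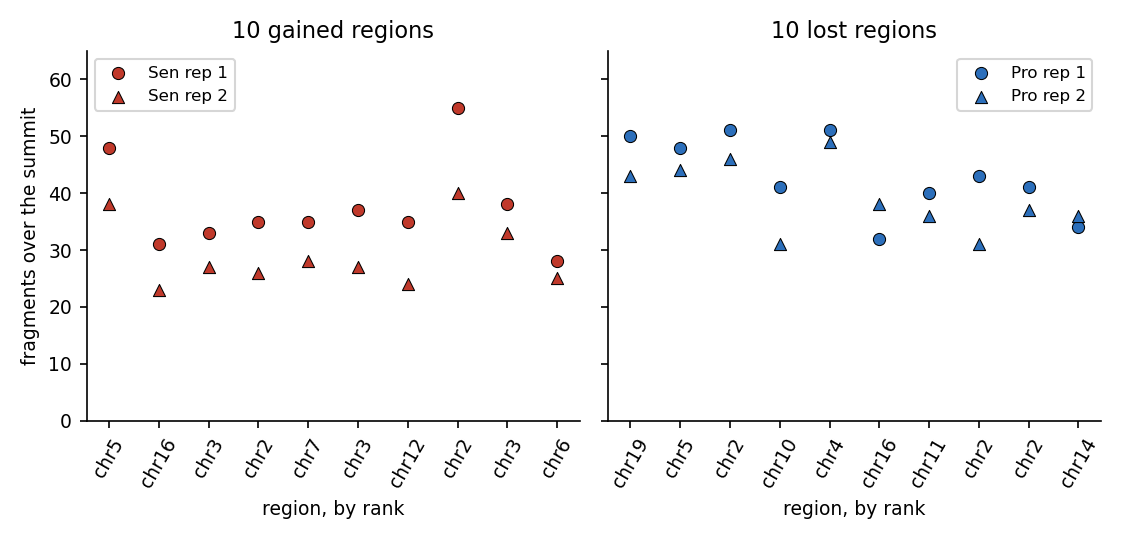
Fragments overlapping the peak summit, solved from the deposited fold enrichment and p-value, in the 10 strongest gained regions (red, Sen libraries) and the 10 strongest lost regions (blue, Pro libraries), in order of rank, labelled by chromosome. Gained regions lie between 23 and 55 fragments, with Sen replicate 2 (triangles) below Sen replicate 1 (circles) in each, and lost regions between 31 and 51.

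The widest members were not the strongest. The 5 widest gained regions spanned 1994 to 2126 bp. The widest, chr9:118781547-118783672, was weak, with 23 and 14 fragments, and ranked 52987 and 58963. The others, chr3:21746466-21748588, chr4:46426780-46428852, chr1:219302515-219304557 and chr2:235649920-235651913, had 20 to 39 fragments in either library. The widest lost region, chr11:83537267-83539924, spanned 2658 bp with 44 and 42 fragments. The lost region chr9:21556690-21559216, 2527 bp wide, had 69 and 63 fragments, the most of any region named here, at a fold enrichment of 3.57 and 3.27. The remaining wide losses were chr2:85064988-85067616, chr2:42275849-42278404 and chr14:53981920-53984279. The first of these lay in the bin at 85 to 86 Mb on chromosome 2 that lost 20 regions.

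A later pair of Sen libraries with H3K27ac, replicates 3 and 4, were not used to define the classes and have the same labels as Sen replicates 1 and 2. They held 48859 and 26694 peaks. Replicate 3 had a peak in 32.9% of gained regions (95% Wilson interval 31.8% to 34.2%, counting error only) and in 8.45% of lost regions (7.98% to 8.95%). Replicate 4 had a peak in 15.5% of gained and in 3.08% of lost regions. Over all joined regions the shares were 30.0% and 17.3%. Gained regions thus had a peak about as often as any joined region, and lost regions less often, so that the gained share was 3.90 and 5.03 times the lost share. A peak in neither library was the case for 62.8% of gained and 25.1% of shared regions. That share over all joined regions was not computed, but each library alone missed most of those regions too. Shared regions had a peak in 71.3% and 48.1% of cases, and the part of the smaller lists in the absences was not tested. Of the lost regions, 89.9% had a peak in neither of the 2 later Sen libraries.

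The presence of a gained region in the later libraries followed its strength in the first ones. With each class ranked and divided into 4 bands of equal size, 51.2% of the strongest band of gained regions had a peak in Sen replicate 3 and 28.3% in replicate 4. In the weakest band the shares were 18.8% and 7.62%. For lost regions the span was smaller, from 10.8% to 6.90% in replicate 3. Of the 10 strongest gained regions, 8 had a peak in replicate 3 and 6 in replicate 4. The first by rank, chr5:64227516-64228778, and chr7:124282963-124283968 had none in either. Of the 10 strongest lost regions, chr19:6076441-6077372 had a peak in replicate 3 and the other 9 had none in either.

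**Figure D4:**
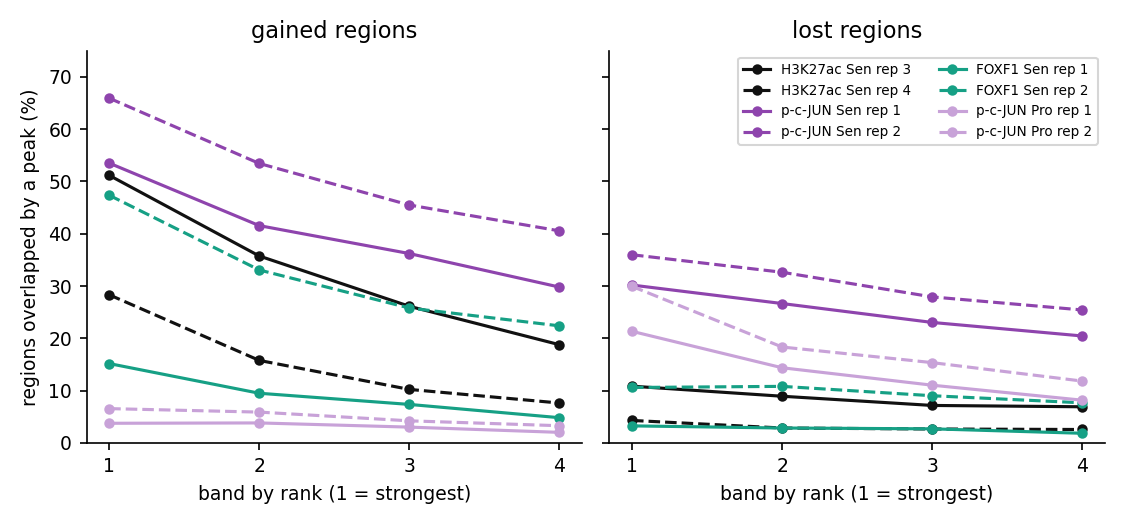
Share of gained (left) and lost (right) regions (%) with a peak in libraries that did not define the classes, by band of strength (1 is the strongest of 4), with solid lines for the lower and dashed lines for the higher numbered replicate. The strongest band of gained regions has a peak in Sen replicate 3 in 51.2% of cases and the weakest in 18.8%.

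In senescent cells phosphorylated c-JUN had peaks in gained regions slightly more often than in all joined regions, and in proliferating cells far less often. In the p-c-JUN libraries of Pro cells, 3.14% and 4.98% of gained regions had a peak, and in those of Sen cells 40.3% and 51.4% did. Over all joined regions the shares were 17.1% and 21.5% in Pro and 36.9% and 44.5% in Sen. Relative to all regions, the p-c-JUN share at gained regions was 0.13 and 0.21 in Sen and -2.45 and -2.11 in Pro on the log2 scale. The contrast thus lay mostly in the low Pro shares. Its size, Sen minus Pro, was 2.45 on that scale (SE 0.17, n = 2 per state, exact two-sided permutation p = 0.333). The 2 states did not overlap, and this p is the smallest the design allows. The class rule ties this contrast to the selection: gained regions had no Pro H3K27ac peak, whereas all joined regions include the shared ones. Shared regions had a Pro p-c-JUN peak in 39.8% and 48.2% of cases. How much of the contrast follows from that selection was not tested. The same limit holds at lost regions, which had no Sen H3K27ac peak. At lost regions the p-c-JUN share was 13.7% and 18.9% in Pro and 25.1% and 30.5% in Sen. It rose less there than over all regions, with a difference of -0.30 on the log2 scale (SE 0.06, n = 2 per state, exact two-sided permutation p = 0.333).

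FOXF1 showed a like contrast from smaller lists. Gained regions had a FOXF1 peak in 0.317% and 1.22% of cases in the Pro libraries and in 9.20% and 32.1% in the Sen libraries. Over all joined regions the shares were 2.43% and 7.70% in Pro and 9.10% and 24.6% in Sen. Relative to all regions, the share at gained regions was 0.02 and 0.38 in Sen and -2.94 and -2.66 in Pro on the log2 scale. The difference at gained regions, relative to all regions, was 3.00 on that scale (SE 0.23, n = 2 per state, exact two-sided permutation p = 0.333). Lost regions had a FOXF1 peak in 1.17% and 4.61% of cases in Pro and in 2.65% and 9.51% in Sen, and the difference relative to all regions was -0.68 (SE 0.26, n = 2 per state, exact two-sided permutation p = 0.333). After Benjamini-Hochberg adjustment over these 4 factor comparisons every p stayed at 0.333. The class rule ties the FOXF1 differences to the selection too, since shared regions had a Pro FOXF1 peak in 6.81% and 20.3% of cases. Replicates of a factor differed more than 2-fold in the number of FOXF1 peaks, from 3441 to 11061 in Pro and from 13603 to 40537 in Sen, which is why each share is set against all regions of the same library.

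How many gained regions carried a factor depended on whether a peak was asked for in 1 or in both Sen replicates. No p-c-JUN peak in either Sen library was found in 45.1% of gained, 65.4% of lost and 19.6% of shared regions, and no FOXF1 peak in either in 66.8%, 89.9% and 45.5%. These shares were not computed over all joined regions. With a peak asked for in both replicates, 3586 gained regions or 59.9% had neither factor. Over all joined regions 64.7% had neither, and among shared and lost regions 33.1% and 78.2%. By the same measure 30.5% of gained regions had p-c-JUN in both Sen but not both Pro libraries, without FOXF1 in both Sen libraries. Over all joined regions 17.2% did, and among shared regions 23.2%. This measure leaves out regions with p-c-JUN in both Pro libraries, which were rarer among gained regions. Both factors were found in 4.78% of gained, 6.20% of all joined and 17.4% of shared regions. FOXF1 without p-c-JUN was found in 3.41%, 1.80% and 3.09%. The share of gained regions with p-c-JUN in both Pro libraries was 1.84%. It was 14.5% over all joined regions and 35.4% in shared regions. Among gained regions the 2198 with p-c-JUN in both Sen libraries were a median of 655.5 bp wide and the other 3790 were 553.5 bp wide. For lost regions the medians were 640 and 606 bp.

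Factor peaks were more frequent in the stronger gained regions. From the strongest to the weakest band, the p-c-JUN share in Sen fell from 53.5% to 29.8% in replicate 1 and from 65.9% to 40.5% in replicate 2. The FOXF1 share in Sen replicate 2 fell from 47.4% to 22.4%. In lost regions the p-c-JUN share in Pro fell from 21.3% to 8.16% in replicate 1 and from 29.9% to 11.8% in replicate 2. Stronger regions are also wider, with a median of 739 bp in the strongest and 500 bp in the weakest band of gained regions, and a wider region has more room for an overlap. Of the 10 strongest gained regions, 8 had a p-c-JUN peak in Sen replicate 1 and 7 in Sen replicate 2, and 4 and 7 had a FOXF1 peak. In Pro, chr3:115039797-115041152 was the one region of the 10 with a p-c-JUN peak, in replicate 2. All 5 of the widest gained regions had a p-c-JUN peak in both Sen libraries and in neither Pro library.

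Among the 10 strongest lost regions, 5 had a p-c-JUN peak in Pro replicate 1 and 7 in Pro replicate 2. In Sen, 4 and 6 did. The region chr10:71528620-71529522 had p-c-JUN peaks in all 4 p-c-JUN libraries and FOXF1 peaks in 3 of 4 FOXF1 libraries. The region chr2:43876040-43877242 had p-c-JUN in both Pro libraries and in neither Sen library. The absence of an H3K27ac peak in senescent cells was thus found at sites with and without a p-c-JUN peak in those cells.

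**Figure D5:**
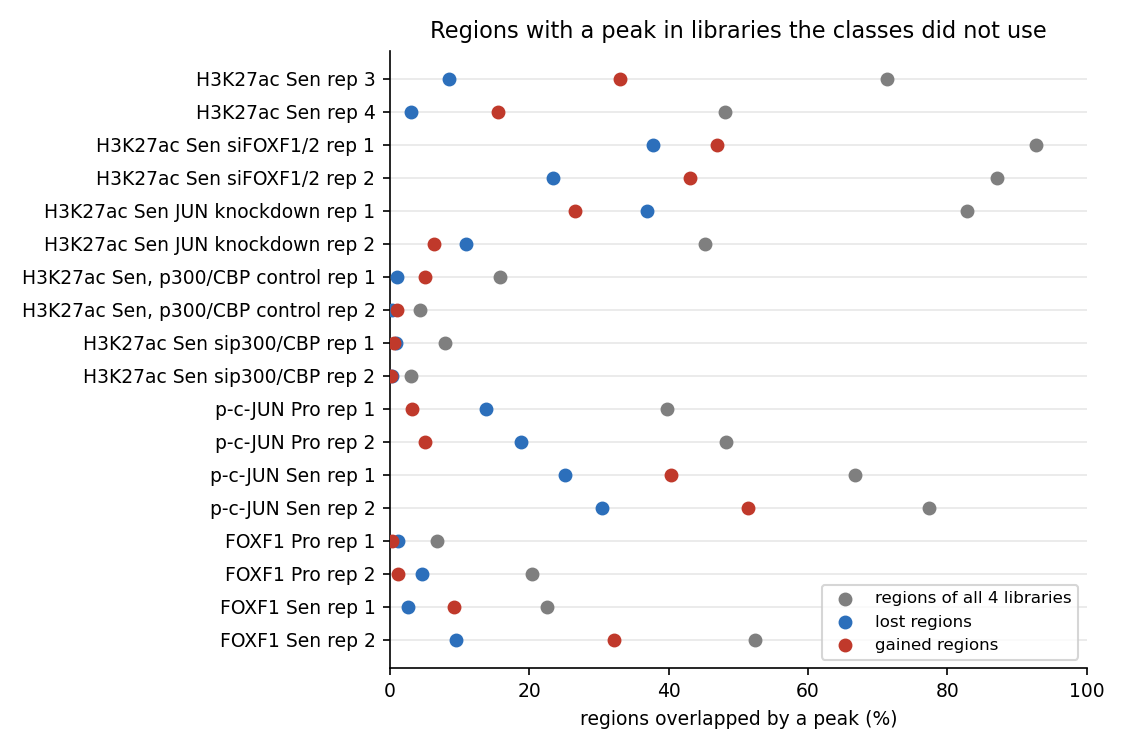
Share (%) of gained (red), lost (blue) and all-library (grey) H3K27ac regions with an overlapping peak in each library that did not define the classes. Gained regions exceed lost regions in H3K27ac Sen replicates 3 and 4 and the p-c-JUN Sen and FOXF1 Sen libraries, and lost exceed gained in the p-c-JUN Pro, FOXF1 Pro and JUN knockdown libraries.

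Senescent cells with siRNA against a factor gave H3K27ac lists in which the 2 classes stood differently. In cells with siFOXF1/2, gained regions had a peak in 47.0% and 43.1% of cases and lost regions in 37.7% and 23.5%, against 51.3% and 43.3% of all joined regions. In cells labelled as a c-JUN and JUND knockdown by title and as sicJUN/JUNB/JUND by treatment, gained regions had a peak in 26.6% and 6.36% and lost regions in 36.8% and 10.9%, against 42.6% and 18.0% of all joined regions. Both classes were thus below all regions in the JUN knockdown libraries, and gained regions were below or level with them under siFOXF1/2. Between the classes, lost regions were the more frequent class in both JUN knockdown libraries, whereas gained regions were in both siFOXF1/2 libraries and in Sen replicates 3 and 4. The ratio of the gained to the lost share was 1.25 and 1.84 with siFOXF1/2, 0.722 and 0.586 with the JUN knockdown, and 3.90 and 5.03 in Sen replicates 3 and 4. These libraries differ in their number of peaks, from 26694 to 84673, and the differences between the groups were not tested. The siFOXF1/2 libraries were deposited with Sen replicates 1 and 2, which defined the classes. The JUN knockdown libraries were deposited later, with Sen replicates 3 and 4. Beside Sen replicates 3 and 4, the effects of siFOXF1/2 and of the deposit thus cannot be told apart.

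The pair of Sen controls titled for comparison with sip300/CBP held 8234 and 2046 peaks. They had a peak in 4.99% and 1.04% of gained regions and in 0.977% and 0.244% of lost regions. With siRNA against p300 and CBP, the acetyltransferases that write the mark, the lists held 4186 and 1549 peaks. They fell in 0.651% and 0.184% of gained and in 0.819% and 0.276% of lost regions. Over all joined regions the shares were 5.53% and 1.44% in the controls and 2.65% and 1.00% with sip300/CBP, above both classes in each of the 4 libraries. The gained share exceeded the lost share in both controls. With sip300/CBP the lost share was above the gained share in both replicates. The 95% Wilson intervals (counting error only) overlapped, at 0.477% to 0.889% for gained and 0.677% to 0.991% for lost regions in replicate 1. In replicate 2 they were 0.103% to 0.329% and 0.198% to 0.383%. Regions are not replicates, so a difference between the classes was not tested there. Of the 10 strongest gained regions, 3 and 1 had a peak in the controls and 1 and 0 with sip300/CBP. With so few peaks per list, most regions of either class had no peak in these libraries, and regions of all 4 libraries themselves had a peak in 15.8% and 4.26% of cases in the controls.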

How the data were processed

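The data are peak lists, 1 per CUT&RUN library, with no read counts. Per the submitters' processing notes, the tools were MACS2 3.0.0, deepTools 3.1.1, Bowtie2 2.3.4.1 and SAMtools 1.9, and the build was hg19; parameters, a control library and the use of the yeast spike-in are not given in the sources used here. Each deposited list gives a score, the fold enrichment at the summit (a ratio), and -log10 p-values and -log10 q-values per peak, all the authors' own. Coordinates are hg19, counted from 1. Of the peaks, 42 on other chromosomes were left out. Fragments over a summit were solved from fold and p, taking fold as (fragments + 1) / (background + 1), and were whole within 0.001 for peaks with -log10 p below 60.

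Peaks were joined, classified, chained and compared with Python 3.11.15, numpy 2.4.6, pandas 2.3.3 and scipy 1.17.1, after a test of the code on simulated peaks. Library measures and factor shares were tested by exact two-sided permutation. Named regions were the 10 of each class with the best worst rank of -log10 q, the 5 widest and the 5 longest chains. The members and this rule were chosen with earlier results of these data known. Alternatives were stricter peaks, other overlaps, lists of equal length, other Sen libraries and each library left out. Genes, distances to start sites, promoters, motifs, sequences and cell type markers were not analysed here, because they need an annotation or genome of the files' build. The lists of FOXF1 and p-c-JUN under knockdown, 6 in all, were not used.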

Additional observations from a re-analysis of the deposited data

How the results depend on the processing

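The differences in peak number, covered length and median width, and the 4 factor differences, kept their direction under every alternative run for them, and no exact permutation p passed 0.05. The counts moved more, and without Sen replicate 2 gained regions outnumbered lost ones. A gain then needed a peak in Sen replicate 1 alone and a loss one in both Pro libraries, so that reversal compares unequal rules. Gained regions numbered 2236 with a -log10 q of 5 or more, 1882 with Sen replicates 3 and 4 in place of 1 and 2, and 657 when all 4 Sen libraries were required, and between 8160 and 22045 with a library left out. Lost regions numbered 31194 with Sen replicates 3 and 4, and between 14552 and 28821 with a library left out; a left-out library makes the class easier to enter. With a -log10 q of 5 or more, 13.9% of gained and 25.0% of lost regions overlapped a region still in their class, and with lists of equal length 67.9% and 47.8% did. Median width under the stricter peaks, lists of equal length and Sen replicates 3 and 4 was 834, 659 and 526 bp for gained and 851, 737 and 694 bp for lost regions. The share in chains of 3 or more was 0.134%, 1.98% and 0.319% for gained and 1.897%, 1.87% and 15.3% for lost regions, and 4.24% and 11.5% with gaps of 20 kb. The count of 100 kb bins higher in Sen went from 1666 to 4792 on the scale of each library's covered length, a scale chosen after the data were seen. Taking same-numbered libraries as pairs (a replicate block) left the peak number difference at -0.27 and covered length at -0.42 (exact p = 1.0 and 0.5). The classes stayed as they are by construction. Over 14993 bins the same-numbered deviations in covered length had a correlation of 0.03. That value cannot tell whether same-numbered libraries share a culture or day, since the Sen deviation includes the lower depth of Sen replicate 2. Alternatives that need gene start sites were not run. A region without a peak may hold a weak signal, and Sen replicate 2 is the shallowest of the 4 libraries.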
